A study of Mus musculus with 6 samples.

Results

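The genes described are 36 genes of dermal fibroblasts and of the extracellular matrix that fibroblasts lay down, listed by name, with earlier results of these arrays known. Each was read through the probe set that names it alone, and 34 of the 36 had such a probe set, out of 30142 genes in all. The other two, Fbn1 (fibrillin 1) and Pdgfra (the PDGF receptor alpha chain, a defining fibroblast marker), were not analysed here. RNA came from epidermal sheets of mouse embryos at E18.5, shortly before birth. The 3 Rptor cKO arrays came from conditional knockouts of Rptor, the gene of Raptor, through which the growth-regulating kinase complex mTORC1 takes hold of its substrates. The 3 wild-type arrays, numbered 4 to 6, came from littermates. Embryos were sorted by appearance and by genotyping, and the sheets were freed from the dermis with ammonium thiocyanate, per the labels' protocols. The sources used here name neither the driver of the recombinase nor the deleted exons. Nor do they say that each array is a separate embryo, so p-values measure the spread between these samples.

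The dermis is a mesh of collagen fibrils. Fibroblasts secrete fibrillar collagens, small proteoglycans that coat the fibrils, and elastin on a scaffold of fibrillins, and the lysyl oxidases crosslink them. The epidermis above holds few fibroblasts when it is cleanly separated, and it rests on a basement membrane of laminins, nidogen, perlecan and collagen IV to which keratinocytes and fibroblasts both contribute. Keratinocytes also make some matrix themselves, fibronectin in healing wounds among it. Bulk arrays cannot tell fewer cells of a type from less RNA per cell, nor show which cell held an RNA.

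Of 30142 genes tested with limma, 2887 passed at an adjusted p below 0.05, 9.58%. The split was 1094 higher and 1793 lower in Rptor cKO, so that 62.1% were lower, and 51.8% with quantile normalization. Rptor read 6.54, 6.82 and 6.72 in Rptor cKO and 6.98, 7.46 and 7.0 in wild type, without overlap, a difference of -0.46 (SE 0.147, adjusted p = 0.099) that missed the threshold. By Xist and Y-linked genes, Rptor cKO arrays 1 and 3 came from females and array 2 and the wild-type arrays from males. Values are log2 on the deposited RMA scale, differences are Rptor cKO minus wild type, and SE is limma's moderated standard error. With 3 arrays a group, precision is limited by their number.

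Collagens, proteoglycans and adhesive proteins were among the matrix genes that rose in Rptor cKO sheets. Of 34 genes measured, 11 rose, 32.4%, where 3.63% of all genes tested did. None fell in limma, where 5.95% of all genes did, and none was lower at an unadjusted p under 0.05 either, a cut at which 11.9% of all genes were higher and 11.4% lower. The 11 were Sparc, Dcn, Fn1, Col5a1, Fbn2, Lum, Col14a1, Dpt, Col3a1, Fbln2 and Col1a1, with folds from 1.38 for Fbln2 to 2.70 for Lum. The median difference of the 34 was 0.43, against 0.05 for all genes, and 32 of 34 lay above 0, 94.1%, against 61.6% of all genes. The groups did not overlap for 20 of the 34 with Rptor cKO higher, 58.8%, where 16.5% of all genes did so, and for 1 with Rptor cKO lower, where 12.5% did. Leaving out Rptor cKO array 2 sets female Rptor cKO arrays against male wild-type arrays, so that fit cannot separate genotype from sex. The count of 11 fell to 7 without Rptor cKO array 1, with Col12a1 from outside the 11 among them, and to 5 without Rptor cKO array 2. The count was 7 without wild-type array 5 and 6 without wild-type array 6. It was also 7 with array medians subtracted. With embryo sex as a term it was 5, from a fit that in effect compares the male Rptor cKO array 2 with the 3 wild-type arrays.

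**Figure D1:**
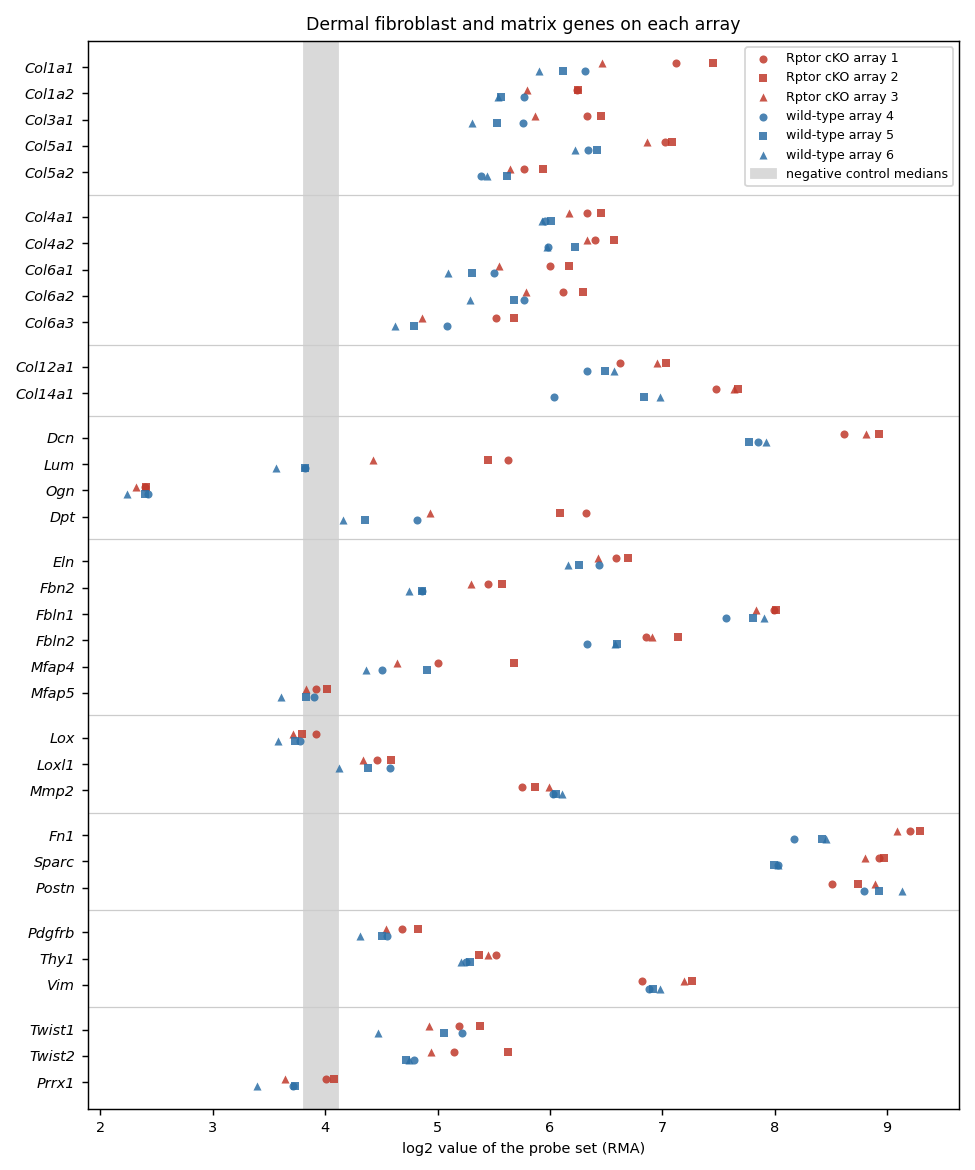
Log2 value of the probe set (horizontal axis) for each of the 34 genes (rows, grouped by role), with Rptor cKO arrays in red and wild-type arrays in blue. The grey band spans the negative control medians of the arrays. Sparc, Dcn, Fn1 and Fbn2 show 2 tight clusters, whereas for Lum, Dpt and Col1a1 the red triangle of Rptor cKO array 3 stands well left of arrays 1 and 2.

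Sparc, Dcn, Fn1 and Fbn2 passed in all 13 alternative fits as well. Sparc encodes a matricellular glycoprotein that binds collagen. It read 8.93, 8.97 and 8.80 in Rptor cKO, against 8.03, 7.99 and 8.03 in wild type. The gap between the groups was far wider than the spread within either, and the rise was 1.85-fold (0.88, SE 0.0891, adjusted p = 0.00179). Dcn, decorin, the proteoglycan that coats collagen fibrils, read 8.62, 8.93 and 8.81 in Rptor cKO and 7.85, 7.77 and 7.92 in wild type. Its rise was 1.91-fold (0.94, SE 0.106, adjusted p = 0.00267), and Rptor cKO array 3 lay between the other two knockout arrays. Fn1, fibronectin, read 9.20, 9.29 and 9.09 in Rptor cKO and 8.17, 8.42 and 8.46 in wild type. It rose 1.79-fold (0.84, SE 0.109, adjusted p = 0.00409), again with every Rptor cKO array well above every wild-type array. Fbn2, the fibrillin of developing tissues, read 5.45, 5.57 and 5.30 in Rptor cKO and 4.86, 4.86 and 4.75 in wild type, a 1.53-fold rise (0.62, SE 0.10, adjusted p = 0.00914).

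Among the fibrillar collagens, 3 of 5 rose, against 3.63% of all genes. The groups did not overlap for any of the 5, with Rptor cKO higher, as for 16.5% of all genes. Col5a1, a chain of the minor collagen V that starts fibrils, read 7.02, 7.09 and 6.86 in Rptor cKO and 6.34, 6.42 and 6.22 in wild type. Its rise of 0.67 (SE 0.102, adjusted p = 0.00729) held with any 1 array left out, and its adjusted p was 0.0525 with embryo sex as a term. Col1a1, the main chain of collagen I, read 7.12, 7.45 and 6.46 in Rptor cKO and 6.31, 6.12 and 5.90 in wild type. Rptor cKO array 3 lay 0.83 below the mean of arrays 1 and 2 and only 0.14 above the highest wild-type array. Col1a1 rose by 0.90 (SE 0.234, adjusted p = 0.0493), just inside the threshold. It lost its call without Rptor cKO array 1 (0.84, adjusted p = 0.122), Rptor cKO array 2 (0.67, adjusted p = 0.155), or wild-type array 4, 5 or 6 (adjusted p = 0.0566, 0.104 and 0.151). Without Rptor cKO array 3 its difference was 1.17 (adjusted p = 0.00541). Col1a1 also missed the threshold with embryo sex as a term, at a larger difference of 1.34 (adjusted p = 0.0592), and under subtraction of array medians or quantile normalization (adjusted p = 0.0668 and 0.0658).

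Col3a1, the collagen of young and healing skin, had the same shape, with 6.33, 6.45 and 5.87 in Rptor cKO and 5.76, 5.53 and 5.31 in wild type. It rose by 0.68 (SE 0.173, adjusted p = 0.0447). The call was lost without Rptor cKO array 1 or 2 (adjusted p = 0.118 and 0.168) and without wild-type array 5 or 6 (adjusted p = 0.0997 and 0.132). Col3a1 also missed it with array medians subtracted, quantile normalization and embryo sex as a term (adjusted p = 0.0583, 0.0569 and 0.106). Col1a2, the partner chain of Col1a1, read 6.24, 6.25 and 5.80 in Rptor cKO and 5.77, 5.56 and 5.54 in wild type. Its difference of 0.48 (SE 0.14, adjusted p = 0.074) did not pass with all arrays and passed without Rptor cKO array 3 (0.63, adjusted p = 0.0196). Col5a2, a second collagen V chain, differed by 0.30 (adjusted p = 0.153).

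Of the collagens that form networks or beaded filaments, 0 of 5 passed in limma, although all 5 were higher at an unadjusted p under 0.05, as 11.9% of all genes were. Col4a1 and Col4a2, chains of the basement membrane collagen that share one promoter region head to head, differed by 0.35 (SE 0.0999, adjusted p = 0.0668) and 0.37 (SE 0.110, adjusted p = 0.0748). With quantile normalization Col4a2 passed (adjusted p = 0.0497). The chains of collagen VI, which links cells to fibrils, differed by 0.61 for Col6a1, 0.48 for Col6a2 and 0.53 for Col6a3. All 3 chains were lower on Rptor cKO array 3 than on arrays 1 and 2, by 0.42 for Col6a2 to 0.74 for Col6a3, and Col6a3 overlapped between the groups. Without Rptor cKO array 3, Col6a1 (0.78, adjusted p = 0.0181) and Col6a3 (0.77, adjusted p = 0.0241) passed.

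The fibril-associated collagens had another profile. Col14a1, which sits on the surface of fibrils, read 7.48, 7.67 and 7.64 in Rptor cKO and 6.04, 6.84 and 6.98 in wild type. The knockout arrays were tight and wild-type array 4 stood low, opposite to the fibrillar collagens, of which 4 of 5 were higher on wild-type array 4 than on array 6. Col14a1 rose by 0.98 (SE 0.221, adjusted p = 0.0294), and lost its call without Rptor cKO array 1, 2 or 3 (adjusted p = 0.0564, 0.118 and 0.0705) and with embryo sex as a term (adjusted p = 0.175). Without wild-type array 4 the difference was 0.69 (adjusted p = 0.0112). Col12a1, its relative, differed by 0.40 (SE 0.129, adjusted p = 0.0974) without overlap, and passed without Rptor cKO array 1 (0.53, adjusted p = 0.0401) and with quantile normalization.

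The largest rises were Lum and Dpt, and both varied most among the knockout arrays. Lum, lumican, a proteoglycan that spaces fibrils, read 5.63, 5.45 and 4.43 in Rptor cKO, against 3.82, 3.82 and 3.56 in wild type. On 2 of 3 wild-type arrays it lay under the array's negative control median, a guide to background and not a detection limit. The measured rise was 2.70-fold (1.43, SE 0.278, adjusted p = 0.0165), and 2.50-fold with values under that median raised to it. Lum lost its call without Rptor cKO array 2 (1.3, adjusted p = 0.0805) or wild-type array 6 (1.35, adjusted p = 0.065), and with embryo sex as a term (1.71, adjusted p = 0.0849). On build GRCm38.p6 Lum (chr10:97565501-97572703) and Dcn (chr10:97479500-97518163) are near neighbours, with a gap of Rptor cKO array 3 to arrays 1 and 2 of -1.11 for Lum and 0.03 for Dcn. Dpt, dermatopontin, which binds decorin, read 6.32, 6.09 and 4.93 in Rptor cKO and 4.82, 4.35 and 4.16 in wild type. Rptor cKO array 3 was 1.27 below the mean of arrays 1 and 2 and 0.11 above wild-type array 4. Dpt rose 2.52-fold (1.33, SE 0.337, adjusted p = 0.0446), and lost its call without Rptor cKO array 1 or 2 (adjusted p = 0.11 and 0.169) or wild-type array 5 or 6 (adjusted p = 0.106 and 0.142). Its call was lost too with array medians subtracted, quantile normalization and embryo sex as a term (adjusted p = 0.0652, 0.0641 and 0.15). Ogn, osteoglycin of the same proteoglycan family, was under that median on each of the 6 arrays, between 2.24 and 2.42.

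Sparc and Col5a1 moved by similar amounts on every Rptor cKO array, and Col3a1 and Dpt did not, so the promoter sequences of these genes are shown together as examples of the 2 profiles. Each is the 250 bases before the start used in RefSeq's promoters, 5′ to 3′ on the gene's strand, on the build GRCm38.p6. Capitals mark the E-box CANNTG, the letters that bHLH proteins such as Twist1 and Twist2 can bind, and TATAAA, both read on either strand. Sparc lies on the minus strand (chr11:55420081-55420330), and Col5a1 (chr2:27886175-27886424), Col3a1 (chr1:45311288-45311537) and Dpt (chr1:164796413-164796662) lie on the plus strand. The Col5a1 stretch runs past the start of the annotated gene at 27886381, so its last bases lie inside the gene.
Sparc: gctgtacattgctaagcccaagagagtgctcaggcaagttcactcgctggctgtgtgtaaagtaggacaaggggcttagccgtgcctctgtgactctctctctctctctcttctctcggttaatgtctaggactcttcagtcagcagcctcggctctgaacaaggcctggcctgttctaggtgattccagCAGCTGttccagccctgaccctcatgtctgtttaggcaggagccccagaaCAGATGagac
Col5a1: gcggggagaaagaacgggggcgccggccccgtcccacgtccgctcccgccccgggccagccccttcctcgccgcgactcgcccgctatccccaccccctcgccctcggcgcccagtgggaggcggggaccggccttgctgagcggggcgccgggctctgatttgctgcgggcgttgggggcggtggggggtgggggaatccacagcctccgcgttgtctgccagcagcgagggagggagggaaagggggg
Col3a1: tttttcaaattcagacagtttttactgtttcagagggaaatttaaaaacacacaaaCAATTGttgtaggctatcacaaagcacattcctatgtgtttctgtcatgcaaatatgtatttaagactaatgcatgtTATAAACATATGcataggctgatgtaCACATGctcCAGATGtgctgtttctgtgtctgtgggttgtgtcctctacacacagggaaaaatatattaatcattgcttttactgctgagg
Dpt: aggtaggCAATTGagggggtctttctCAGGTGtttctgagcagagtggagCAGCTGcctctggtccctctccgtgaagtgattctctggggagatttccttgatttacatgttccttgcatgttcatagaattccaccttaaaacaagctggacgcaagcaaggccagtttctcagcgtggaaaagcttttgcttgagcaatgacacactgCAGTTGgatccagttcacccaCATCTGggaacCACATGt
Sparc held 2 E-boxes, Col5a1 none, Col3a1 4 with 1 TATAAA that abuts an E-box, and Dpt 6. Promoters were at hand for 18 of the 34 genes, and CANNTG occurred in 7 of the 18, 38.9%, against 66.0% of 27025 promoters of the same length. TATAAA occurred in 4 of 18, 22.2%, against 13.0%, and the AP-1 motif TGANTCA in 1 of 18, 5.56%, against 6.87%. GGGCGG, the core of the GC box, occurred in 7 of 18, 38.9%, against 32.9%, and CCAAT in 6 of 18, 33.3%, against 34.5%. Col5a1 held 2 copies of GGGCGG. The 4 printed promoters were picked after seeing the values. Of the others at hand, Col1a2, Col6a2 and Twist2 held no E-box, with array 3 gaps of -0.44, -0.42 and -0.45. Col6a1 and Fbln2, with gaps of -0.53 and -0.08, held at least 1. A link between motifs and profile was not tested.

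Of 6 measured elastic fibre genes 2 rose, 33.3%, against 3.63% of all genes. Besides Fbn2, Fbln2, a fibulin of basement membranes and elastic fibres, read 6.85, 7.14 and 6.91 in Rptor cKO and 6.33, 6.60 and 6.58 in wild type. It rose by 0.46 (SE 0.119, adjusted p = 0.0473), and lost its call in all 6 fits that left out 1 array, with adjusted p from 0.0635 without Rptor cKO array 1 to 0.174 without Rptor cKO array 2. It was also lost with array medians subtracted, an intensity trend and embryo sex as a term (adjusted p = 0.0624, 0.0724 and 0.0976). Eln, elastin, differed by 0.29 (SE 0.112, adjusted p = 0.169), and Fbln1 by 0.18 (adjusted p = 0.403). Mfap4, a microfibril protein, differed by 0.52 (SE 0.254, adjusted p = 0.272), with Rptor cKO array 2 at 5.68 and arrays 1 and 3 at 5.00 and 4.64. Mfap5 stayed between 3.61 and 4.02 on all arrays, close to the negative control medians.

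**Figure D2:**
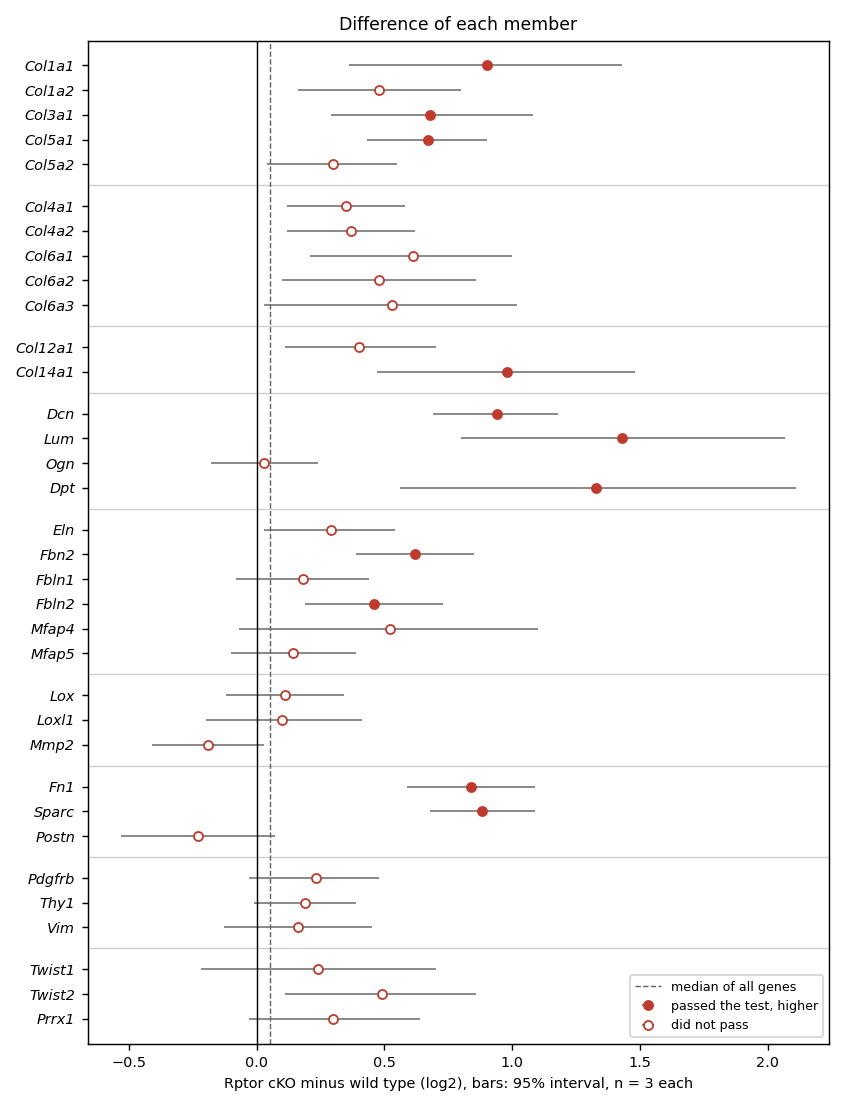
Difference between Rptor cKO and wild type (horizontal axis, log2) for each of the 34 genes, with 95% intervals from limma. Filled points are the 11 genes that passed the test, open points did not, and Postn and Mmp2 alone lie left of 0.

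None of the crosslinking enzyme and protease genes passed. The crosslinking enzyme genes Lox (0.11, SE 0.10) and Loxl1 (0.10, SE 0.132) had 95% intervals from -0.12 to 0.34 and from -0.20 to 0.41, and Lox never exceeded the negative control median. Mmp2, the gelatinase of fibroblasts, read 5.75, 5.87 and 5.99 in Rptor cKO and 6.03, 6.05 and 6.11 in wild type. It alone of the 34 had each Rptor cKO value below each wild-type value, and its difference was -0.19 (SE 0.0957, adjusted p = 0.275). Postn, periostin, a matricellular protein of the dermal junction, was among the brightest of the probe sets and differed by -0.23 (SE 0.131, adjusted p = 0.334). Its values were 8.51, 8.74 and 8.89 in Rptor cKO and 8.79, 8.93 and 9.13 in wild type, overlapping, whereas Sparc and Fn1 of the same role group rose.

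None of the cell markers or mesenchymal transcription factors passed with all arrays. Pdgfrb, the PDGF receptor of fibroblasts and pericytes, differed by 0.23 (SE 0.111, adjusted p = 0.271). Thy1, a surface protein of fibroblasts and also of T cells of the epidermis, differed by 0.19 (SE 0.0875, adjusted p = 0.230), without overlap. Vim, vimentin, the intermediate filament of mesenchymal cells, read 6.82, 7.26 and 7.19 in Rptor cKO and 6.88, 6.92 and 6.98 in wild type. It differed by 0.16 (SE 0.127, adjusted p = 0.514), with a 95% interval from -0.13 to 0.45, and the lowest of the 6 values was Rptor cKO array 1. Of the mesenchymal transcription factors, Twist2 read 5.15, 5.63 and 4.94 in Rptor cKO and 4.79, 4.72 and 4.75 in wild type, without overlap. Its difference of 0.49 (SE 0.164, adjusted p = 0.111) passed without Rptor cKO array 3 (0.64, adjusted p = 0.0458) and with embryo sex as a term (0.88, adjusted p = 0.0347). Twist1 differed by 0.24 (SE 0.200, adjusted p = 0.528). Prrx1 read 4.01, 4.08 and 3.64 in Rptor cKO and 3.71, 3.73 and 3.39 in wild type, under the negative control median on 2 of 3 Rptor cKO and 3 of 3 wild-type arrays.

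Array by array, the members differed in how Rptor cKO array 3 read. The mean of the 5 fibrillar collagens was 6.5, 6.64 and 6.13 on Rptor cKO arrays 1 to 3, against 5.92, 5.85 and 5.68 on wild-type arrays 4 to 6. Rptor cKO array 3 was the lowest knockout array for 26 of 34 members, 76.5%, against 34.2% of all genes and 51.6% of the 1094 genes that rose. The gap of that array to arrays 1 and 2 ran from -1.27 for Dpt to 0.27 for Postn. For Dcn and Col14a1 it was 0.03 and 0.06, and for Sparc and Fn1 -0.15 each, which is small beside their differences. Array 3 also stood nearest to wild type in the keratins of the differentiated layers, with Krt1 at 10.30, 9.81 and 11.63 in Rptor cKO and 12.73, 12.50 and 12.72 in wild type. Krt15 had the same order, at 8.07, 8.71 and 9.63 in Rptor cKO and 10.98, 10.89 and 11.47 in wild type. Of the keratinocyte markers that rose, neither Itgb4 nor Dsg3 had array 3 nearest to wild type.

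**Figure D3:**
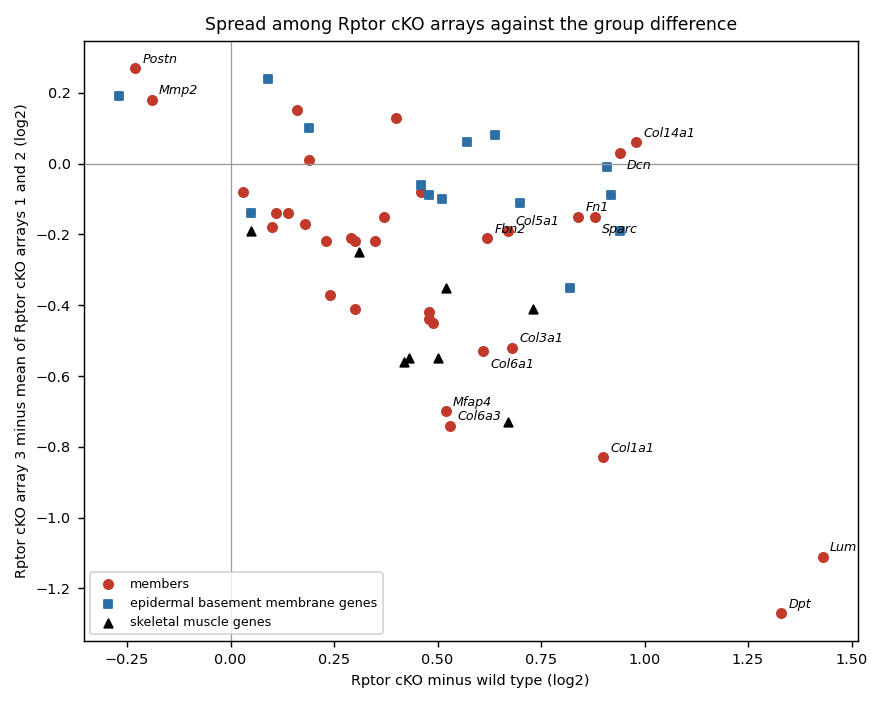
Gap of Rptor cKO array 3 to the mean of Rptor cKO arrays 1 and 2 (vertical axis, log2) against the difference between the groups (horizontal axis, log2) for the 34 members (red), 14 epidermal basement membrane genes (blue squares) and 8 skeletal muscle genes (black triangles). Dcn, Col14a1, Sparc and Fn1 lie near 0 on the vertical axis with differences from 0.84 to 0.98, whereas Dpt and Lum lie below -1.1.

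Markers of tissues below the epidermis were read on the same arrays. Of 8 measured skeletal muscle genes, markers of a tissue that lies under the dermis, none passed in limma (1 did if Rptor cKO array 3 or wild-type array 4 was left out), and 6 were higher and 0 lower at an unadjusted p under 0.05, against 11.9% and 11.4% of all genes. Their mean was 5.51, 5.76 and 5.18 in Rptor cKO and 5.31, 4.96 and 4.81 in wild type, and each was above the negative control median on at least 1 array. Rptor cKO array 3 was the lowest knockout array for 8 of 8, against 34.2% of all genes, and wild-type array 4 was above array 6 for 8 of 8, against 56.2%. The fibrillar collagens had that order of arrays in 5 of 5 and 4 of 5, and the collagens of networks and filaments in 5 of 5 for both. Over all 34 members, wild-type array 4 was above array 6 for 67.6%. It was so for 22 of 25 further fibroblast genes and 11 of 11 endothelial markers. Rptor cKO array 3 was the lowest knockout array for 12 of those 25 and 6 of those 11. Wild-type array 6 had the lowest median of all genes among the arrays, 4.77. The part of muscle or dermis in the result was not tested.

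Of 11 endothelial markers 2 rose, 18.2%, and none fell, against 3.63% and 5.95% of all genes. The rises were Pecam1 by 0.53 (adjusted p = 0.0167) and Flt1 by 0.74 (adjusted p = 0.0171). Neither rise passed if Rptor cKO array 2 or wild-type array 6 was left out, nor Pecam1 if Rptor cKO array 1 was. The list mean ran from 4.27 to 4.40 in Rptor cKO and from 3.99 to 4.24 in wild type, and Kdr, Tek and Emcn were never above the negative control median. Among 9 pericyte and smooth muscle markers, Acta2, smooth muscle actin, read 4.92, 6.71 and 6.52 in Rptor cKO and 4.50, 4.42 and 4.21 in wild type (1.68, SE 0.407, adjusted p = 0.0385). That call was kept in only 1 of the 6 fits that left out an array, the one without Rptor cKO array 1. Mcam, an adhesion molecule also of other cells, rose by 1.00 (SE 0.133, adjusted p = 0.00452) and was called in each of those fits, and the list gave 3 rises without Rptor cKO array 1 and 1 in each other. The mean of these 9 ran from 5.04 to 5.48 in Rptor cKO and from 4.75 to 4.89 in wild type, with Kcnj8 alone under the negative control median throughout. Of 8 markers of hair follicle mesenchyme none passed, at means from 4.78 to 5.19 in Rptor cKO and from 4.61 to 4.83 in wild type, with 2 higher and 0 lower at an unadjusted p under 0.05, set against 11.9% and 11.4% of all genes, and 2 passed without Rptor cKO array 3. Tbx18 of this list was never above the negative control median. The keratinocyte list held 2 rises and 5 falls in 12, 16.7% and 41.7%, against 3.63% and 5.95% of all genes. The falls were 2 without Rptor cKO array 1 and 1 without Rptor cKO array 2 or wild-type array 6, and there was 1 rise in each fit that left out 1 array, except the one without wild-type array 6, with 2. The part of these cells in the rise of the matrix genes was not tested.

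**Figure D4:**
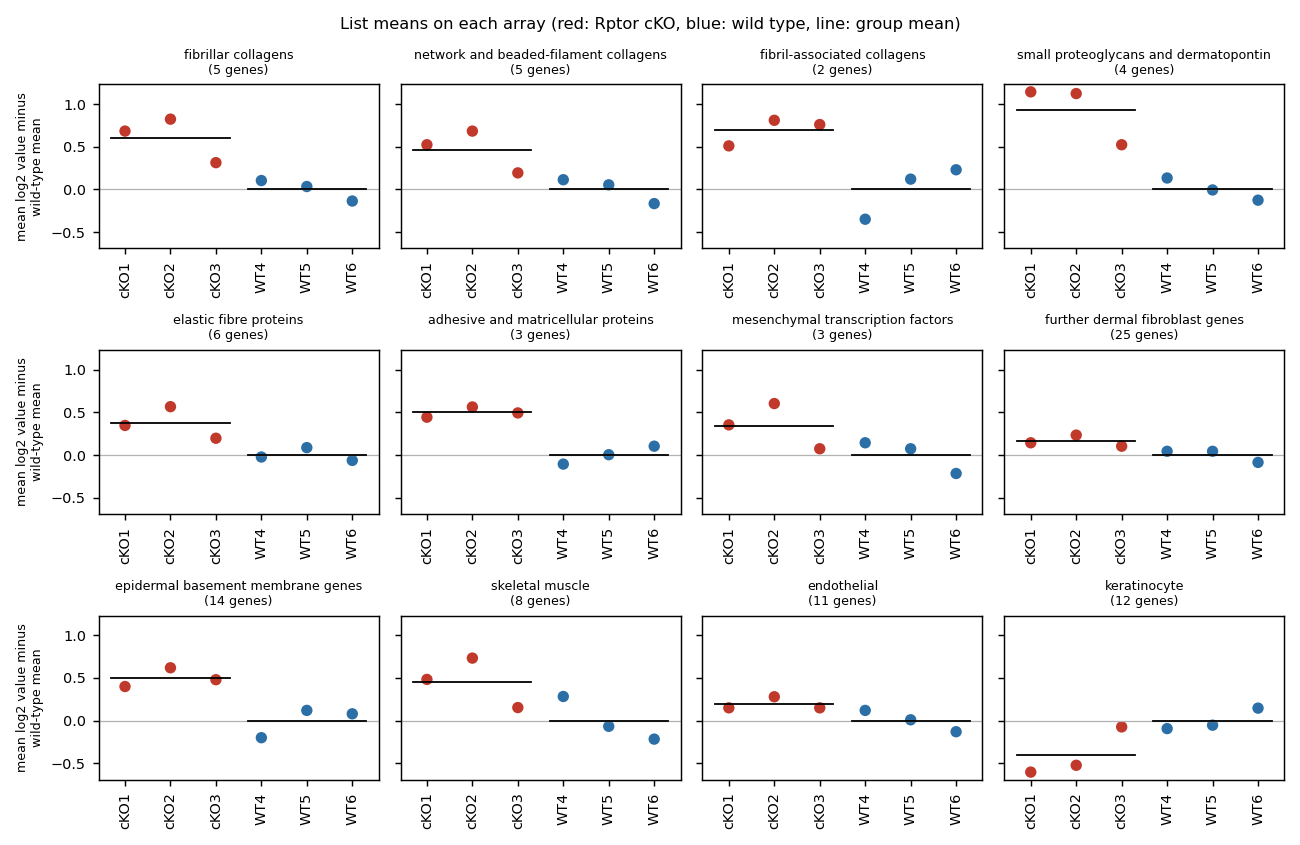
Mean log2 value of each list on each array minus the wild-type mean (vertical axis, log2), with Rptor cKO arrays left in red, wild-type arrays right in blue and the group means as lines. The fibrillar collagen and skeletal muscle means are lowest on Rptor cKO array 3 among knockouts and wild-type array 6 among wild types. The means of the adhesive and matricellular proteins and of the basement membrane genes are not. Sparc and Fn1 of the adhesive list were still lowest on Rptor cKO array 3 among the knockouts, whereas Postn was highest there.

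Of a second list of 25 fibroblast genes, not members, none rose and 1 fell, 4.0%, against 3.63% and 5.95% of all genes. The median was 0.18, and 8 were higher and 2 lower at an unadjusted p under 0.05, where 11.9% and 11.4% of all genes were. The fall was Fap, fibroblast activation protein, at 3.43, 3.57 and 3.56 in Rptor cKO and 3.89, 3.94 and 3.95 in wild type (-0.40, SE 0.0875, adjusted p = 0.0252). Its Rptor cKO values were under the negative control median. With values under that median raised to it, the ratio of Rptor cKO to wild type for Fap was 1.01. Picked after seeing the values, as those nearest to passing, Cdh11, a cadherin of mesenchymal cells, differed by 0.44 (adjusted p = 0.0502), and Pcolce, which speeds procollagen cleavage, by 0.53 (adjusted p = 0.0593). Leaving out Rptor cKO array 3 gave 4 rises, and leaving out wild-type array 4 gave 2. The fall of Fap was lost in every fit that left out 1 array, except the one without wild-type array 4.

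Of 20 measured genes that fold and process collagen, none rose and 1 fell, 5.0%, against 3.63% and 5.95% of all genes. The median was 0.14, and 4 were higher and 5 lower at an unadjusted p under 0.05, beside 11.9% and 11.4% of all genes. Adamts14, a procollagen N-propeptidase, read 6.49, 6.53 and 6.54 in Rptor cKO and 7.04, 7.49 and 7.21 in wild type, and fell by 0.73 (SE 0.122, adjusted p = 0.00983). The list gave 2 rises without wild-type array 5, 2 falls without Rptor cKO array 3 or wild-type array 5, and no fall without Rptor cKO array 2.

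Of 14 epidermal basement membrane genes, 9 rose, 64.3%, and none fell, against 3.63% and 5.95% of all genes. Their median was 0.54, against 0.05 for all genes. Nid1, nidogen, read 6.74, 6.89 and 6.72 in Rptor cKO and 5.85, 5.97 and 5.77 in wild type, a rise of 0.92 (SE 0.0972, adjusted p = 0.00207). Lamb1, a laminin chain, rose by 0.94 (SE 0.155), and Frem1, a protein of the embryonic skin basement membrane, by 0.82 (SE 0.136). The number of rises was 1 without Rptor cKO array 2, where Lamb1 and Frem1 were not called, 5 without Rptor cKO array 3, and 6 to 9 without each other array. Rptor cKO array 3 was the lowest knockout array for 6 of the 14, 42.9%, against 34.2% of all genes. Wild-type array 4 was above array 6 for 2 of 14, 14.3%, against 56.2% of all genes.

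Of 17 matricellular and remodelling genes, 6 rose, 35.3%, and 1 fell, 5.88%, against 3.63% and 5.95% of all genes. Tnc, tenascin C of healing skin, read 9.20, 9.60 and 9.47 in Rptor cKO and 6.42, 7.36 and 7.10 in wild type, the largest rise of this list (2.46, SE 0.227, adjusted p = 0.00138). Ccn1, a matricellular target of YAP, rose by 2.01 (SE 0.172), and Vcan, versican, a large proteoglycan of embryonic dermis and of healing wounds, by 0.95 (SE 0.108). Tgfbi, a secreted protein named for its induction by TGF-beta, fell by 1.87 (SE 0.322, adjusted p = 0.0107). Of 19 matrix receptors 5 rose, 26.3%, and none fell, beside the same shares of all genes. The rises were led by Itga3 (1.41, SE 0.160), Itgb4 (0.98, SE 0.115) and Itgb1 (0.87, SE 0.166). These are integrin chains that bind laminin, fibronectin or collagen in pairs. The receptors that rose numbered 2 without Rptor cKO array 2, and 3 without Rptor cKO array 1 or wild-type array 4. In the fit without wild-type array 4, 1 receptor fell.

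Signals that act on fibroblasts and matrix were also read. Of 17 TGF-beta pathway genes 5 rose, 29.4%, and none fell, against 3.63% and 5.95% of all genes. Among the 5 were Tgfb1, the ligand (0.66, SE 0.131), Tgfbr2, the type II receptor (0.73, SE 0.110), and Smad3, which carries the signal to the nucleus (0.65, SE 0.132). These 5 calls were 1 without Rptor cKO array 1 or 2, 3 without wild-type array 4 and 2 without wild-type array 6. Pdgfa and Pdgfc, ligands that keratinocytes send to the dermis, rose by 0.45 (SE 0.102, adjusted p = 0.0299) and 0.63 (SE 0.115, adjusted p = 0.013), 2 of 4 PDGF ligands. The count was 1 in each fit that left out 1 array, except without wild-type array 6, where it was 2. Snai2, a repressor of epithelial genes that basal keratinocytes also express, rose by 0.58 (SE 0.115, adjusted p = 0.0175), 1 of 7 further regulators of mesenchymal transition, and was not called without Rptor cKO array 1 or 2.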

How the data were processed

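Total RNA was labelled with the Ambion Expression WT kit, per the labels' protocols. The values deposited by the authors are log2 intensities summarised to probe sets. RMA, Partek and mm10 are the names in the submitters' processing notes, and no version is given. RMA makes array distributions alike, so a general change of RNA per cell cannot be seen. Of 72688 probe sets, 6732 controls were left out and 30604 named a single gene, with symbols updated by Entrez ID. Where a gene had several (355 genes), the brightest by its 6-array mean was kept, and each member had 1. Differences were fitted with limma 3.58.1 in R 4.3.3 (lmFit and eBayes, group as sole term, all 6 arrays, two-sided, Benjamini-Hochberg over 30142 genes), tested on simulated data first. An exact permutation test of 3 against 3 arrays cannot go below p = 0.1. No scan date is given, so batches were not tested. Tables and plots were made in pandas 2.3.3 and matplotlib 3.10.9 (Python 3.11.15). Per-array values are given for members that passed and for Col1a1, Col1a2, Col3a1, Dcn, Lum, Twist2 and Prrx1, with a few more chosen after values were seen. From each of 8 further gene lists and 12 cell type lists, up to 3 members that passed in each direction, by smallest p, are named, and for the cell type lists only those that touch a result. Members and lists were chosen with earlier results of these data known. Alternatives were array medians subtracted, quantile normalization, the mean of a gene's probe sets, dim genes left out, an intensity trend, robust moderation, embryo sex as a term, and each array left out.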

Additional observations from a re-analysis of the deposited data

How the results depend on the processing

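The number of arrays limits precision, and brightness near the negative control medians limits Lum, Ogn, Lox, Mfap5 and Prrx1. The 95th percentile of the negative controls ran from 7.46 to 8.07 across the arrays. Of the members that passed, only Sparc, Dcn and Fn1 lay above it on every array, and the others lay under it on every array. With embryo sex as a term, 642 genes passed in place of 2887 and 5 members were higher in place of 11, and with array medians subtracted 7 members were higher. Leaving out 1 array gave 886 to 2443 genes, 5 to 13 higher members and a median difference of the members from 0.30 to 0.46. No member was lower in limma under any of the 13 alternatives, and the other fits gave 10 or 11 higher members. The higher members were not always among the 11 of the main fit. Twist2 was called with embryo sex as a term, and Col12a1 without Rptor cKO array 1. With quantile normalization, 8 of the 11 kept their call. The differences of Ogn with array medians subtracted (-0.0028) and without wild-type array 6 (-0.03), and of Loxl1 without wild-type array 6 (-0.02), changed sign, none of them called, over leave-one-out ranges of -0.03 to 0.06 for Ogn and -0.02 to 0.21 for Loxl1. The cause of these shifts was not tested. No paired analysis was possible because the groups share no replicate numbers.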

Other observations

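Markers of other cell types of the sheet were read as well. Of 10 macrophage and Langerhans markers, 3 were lower in Rptor cKO, 30.0%, and none higher, against 5.95% and 3.63% of all genes. Csf1r, the receptor that macrophages and Langerhans precursors need, read 4.90, 5.30 and 5.17 in Rptor cKO and 5.70, 5.77 and 5.82 in wild type (-0.64, SE 0.118, limma adjusted p = 0.0141). Ptprc, the pan-leukocyte antigen gene, fell by 0.57 (SE 0.108) and was not called without Rptor cKO array 2. Its values were under the negative control median on 3 of 3 Rptor cKO arrays and 1 wild-type array. With values under that median raised to it, the ratio of Rptor cKO to wild type was 0.953. Cx3cr1, a chemokine receptor, fell by 0.70 (SE 0.175), a call lost in 5 of the 6 fits that left out 1 array. Cd3g, a chain of the T cell receptor complex, fell by 0.51 (SE 0.112, adjusted p = 0.0272), 1 of 8 T cell markers, and was not called without Rptor cKO array 1 or 2 or wild-type array 5 or 6.

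Of 8 Merkel cell markers 1 fell and 1 rose, 12.5% each, against 5.95% and 3.63% of all genes. Atoh1, the factor that specifies Merkel cells, read 4.94, 4.89 and 4.93 in Rptor cKO and 5.43, 5.66 and 5.71 in wild type (-0.68, SE 0.101, adjusted p = 0.00667), without overlap. Krt18, a keratin of simple epithelia, rose by 0.43 (SE 0.0884), and was called in only 1 of the 6 fits that left out 1 array. Of 7 melanocyte markers Kit rose by 0.63 (SE 0.136, adjusted p = 0.0252) and all 7 lay above 0, against 61.6% of all genes. Rptor cKO array 3 was the lowest knockout array for none of the 7, against 34.2% of all genes. Kit was not called without Rptor cKO array 2 or 3 or wild-type array 5. None of 6 Schwann cell, 7 adipocyte or 3 erythroid markers passed in limma, and none had an unadjusted p under 0.05.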
